A study of Rattus norvegicus with 10 samples.

Results

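The 10 genes described here are the Notch receptors *Notch1*, *Notch2*, *Notch3* and *Notch4*, the ligands *Jag1*, *Jag2*, *Dll1* and *Dll4*, and the target genes *Hes1* and *Hey1*. They were chosen by gene symbol from the 32545 genes of the table, and each symbol had 1 row. RNA-seq was done on the kidneys of 5 males and 5 females of the PCK rat, each rat giving 1 library, to look for differences between the sexes. PCK rats (strain PCK/CrljCrl-Pkhd1pck/Crl) model autosomal recessive polycystic kidney disease through a spontaneous mutation of *Pkhd1*, the gene for fibrocystin, and both groups carry it, so no unaffected rat enters any comparison here. The methods describe renal cortex of littermates from 2 litters aged 10 to 12 weeks, from kidneys flushed with phosphate-buffered saline, whereas the series text gives 12 to 14 weeks and the labels name the tissue as kidney. Which rat came from which litter is not given in the sources used here.

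Notch receptors are single-pass membrane proteins that bind Jagged and Delta-like ligands on a neighbouring cell. Binding exposes the receptor to cleavage by an ADAM protease and then by γ-secretase, and the freed intracellular domain enters the nucleus, where it joins the DNA-binding protein RBPJ and switches on repressor genes of the *Hes* and *Hey* families. In the kidney the pathway is known for the patterning of nephron segments, for the balance between principal and intercalated cells of the collecting duct, for the differentiation of vessels, where *Notch4* and *Dll4* mark endothelium and *Notch3* marks mural cells, and for its return in injured tubules.

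The promoters of *Hes1* and *Dll1* are shown because, among the 8 members with a promoter window, these hold both of the strings searched, 1 of which is a core sequence bound by RBPJ. The letters searched, on both strands, were GTGGGAA and the related TTGGGAA, and the second was added after the *Hes1* window had been read. The sequences are from RefSeq, build GRCr8, and 8 of the 10 members were matched by symbol, with 9 windows that run from 250 bases before to 50 bases after a start site. *Dll4* and *Hey1* had none. The other 6 members with a window held neither string in full, which says nothing of shorter or variant matches. Only the 250 bases before the start site are printed, 5′ to 3′ on the strand of the gene, with the matched letters in capitals. *Hes1* lies at chr11:84213046-84213295 and *Dll1* at chr1:64993275-64993524, both on the minus strand.
Hes1: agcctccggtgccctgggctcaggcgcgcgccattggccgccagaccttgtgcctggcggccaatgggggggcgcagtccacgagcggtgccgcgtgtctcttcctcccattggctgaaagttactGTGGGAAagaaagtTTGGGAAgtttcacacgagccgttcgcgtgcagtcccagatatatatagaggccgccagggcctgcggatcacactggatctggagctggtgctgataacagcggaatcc
Dll1: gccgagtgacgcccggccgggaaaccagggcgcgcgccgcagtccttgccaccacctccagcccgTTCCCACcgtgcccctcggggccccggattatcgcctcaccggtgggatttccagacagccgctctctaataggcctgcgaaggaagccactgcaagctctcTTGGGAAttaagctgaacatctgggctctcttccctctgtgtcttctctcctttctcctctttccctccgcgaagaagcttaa
In the *Hes1* window GTGGGAA begins 124 bases and TTGGGAA 110 bases before the start site, on the same strand and with 7 bases between them. In the *Dll1* window GTGGGAA stands on the opposite strand, where it reads TTCCCAC, 185 bases before the start site, and TTGGGAA follows 83 bases before it. Of 33469 rat promoter windows of this length, 6.29% hold GTGGGAA, 5.36% hold TTGGGAA and 0.356% hold both. Since TTGGGAA was added after the *Hes1* window had been read, these shares do not gauge how rare the *Hes1* match is. A match describes the letters only and is not evidence of binding.

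Expression is given as FPKM, reads scaled for gene length and library size, which can be compared between genes within a library. The FPKM of every value came out as whole reads to within 0.01, and 13912569 to 20285911 reads fell on genes in males and 14963924 to 19556707 in females. *Notch1*, *Notch2*, *Notch3*, *Notch4*, *Jag1*, *Jag2*, *Dll4* and *Hes1* had 172 to 912 reads per rat, *Dll1* had 77 to 162, and *Hey1*, the least precise member, had 8 to 26. Proximal tubule markers were high in every library, with summed levels of 1354.7 to 2805 FPKM, while *Pvalb*, a marker of the distal convoluted tubule, was listed at 0 in all 10. Female 2 stood apart from the other rats: its summed level of 4 urothelial markers was 9.83 FPKM, against 0.144 to 0.320 FPKM elsewhere, and mitochondrial genes took 26.8% of its reads. A row of *Slc14a2*, a marker of inner medulla, was at 2.24 FPKM in female 2 and at most 0.0665 FPKM elsewhere. Its summed level of inner medulla markers was 12.6 FPKM, under the 13.5 FPKM of female 4.

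*Hes1* was by far the most abundant member, with 26.6 FPKM over the 10 rats, above 82.6% of the 17631 genes that had a mean of at least 0.1 FPKM and were tested. The other 9 members had means of 0.982 to 4.58 FPKM, below the median tested gene at 5.79 FPKM. In descending order of mean they were *Jag1* (4.58 FPKM), *Notch1* (4.39 FPKM), *Notch3* (3.64 FPKM), *Notch4* (3.64 FPKM), *Notch2* (3.23 FPKM), *Jag2* (3.14 FPKM), *Dll4* (3.06 FPKM), *Dll1* (1.72 FPKM) and *Hey1* (0.982 FPKM). Neighbours in this order were compared within rats by an exact sign-flip permutation test of the difference in log2(FPKM + 0.1), two-sided, with Benjamini-Hochberg adjustment over the 9 pairs. In 4 of the 9 pairs the difference exceeded the spread over rats. *Hes1* was higher than *Jag1* in 10 of 10 rats (mean log2 difference 2.52, exact adjusted p = 0.00586), *Notch1* was higher than *Notch3* in 10 of 10 (0.27, exact adjusted p = 0.00586), *Dll4* was higher than *Dll1* in 10 of 10 (0.82, exact adjusted p = 0.00586) and *Dll1* was higher than *Hey1* in 9 of 10 (0.79, exact adjusted p = 0.00879). From *Notch3* through *Notch4*, *Notch2* and *Jag2* to *Dll4*, no neighbour differed beyond its spread, nor did *Jag1* and *Notch1* (exact adjusted p of 0.0949 to 0.834).

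**Figure D1:**
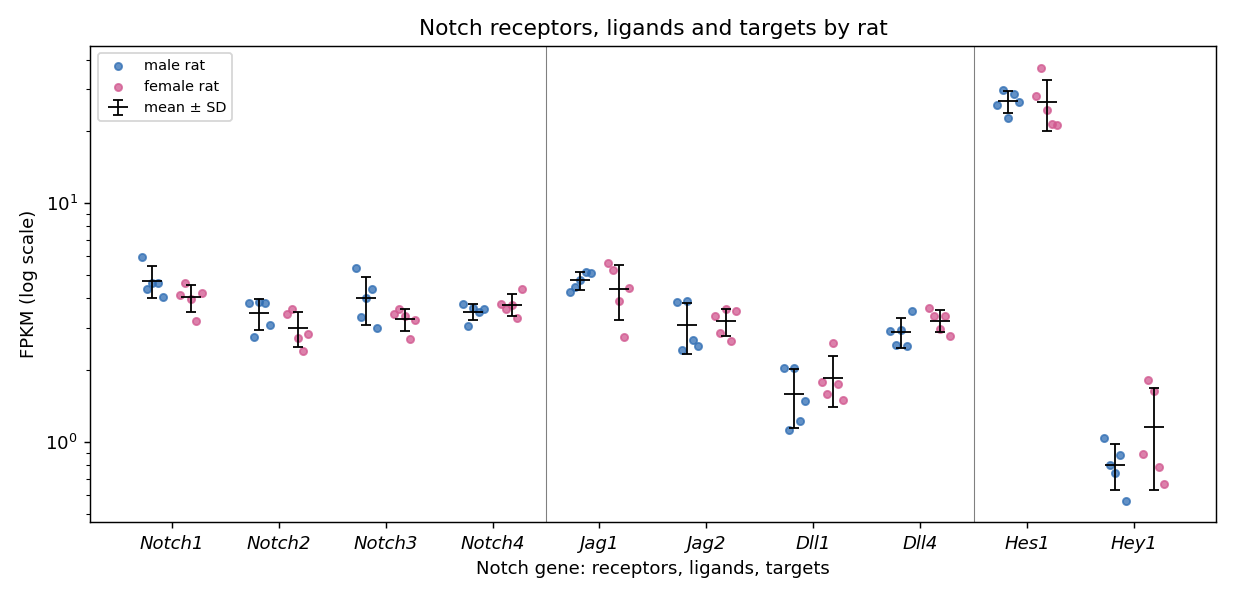
Expression of the 10 Notch genes in each rat, in FPKM on a log axis, with receptors on the left, ligands in the middle and targets on the right. Points are rats (blue, 5 males; pink, 5 females) and bars are mean ± SD; *Hes1* stands at 21.4 to 37.0 FPKM, the other members at 0.569 to 5.98 FPKM, and the ranges of the sexes overlap for every member.

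No difference between males and females passed a test for any of the 10 members. In limma on log2(FPKM + 0.1), 0 of 10 passed both thresholds, an adjusted p of 0.05 and an absolute log2 fold change of 1, against 1.32% of all tested genes, and 0 of 10 had an adjusted p of at most 0.05 alone, against 2.40%. At an unadjusted p of at most 0.05 limma again called 0 of 10, against 15.7% of tested genes, and limma-voom on the recovered reads called 0. Mean FPKM were also compared by an exact permutation test, two-sided, which reached 0.05 for 0 of 10 members, against 14.8% of tested genes (7.38% lower in females), and the smallest p that 5 rats against 5 allow is 0.00794. The FPKM ranges of the sexes overlapped for all 10 members, and were apart for 5.10% of tested genes. Females had the lower mean for 5 members and the higher mean for 5, and the median log2 fold change of females over males was 0.02 over the members and −0.01 over all tested genes.

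The 95% limma intervals set bounds on what these 10 rats could have missed. They excluded a log2 fold change of 1 in either direction for 9 members, whereas the interval of *Hey1* ran from −0.23 to 1.02, or a fold of females over males of 0.855 to 2.03. For *Notch4*, the narrowest, the fold lay between 0.907 and 1.26, and for *Notch3* it lay between 0.655 and 1.06. Since the tissue is bulk, fewer cells of a type and less RNA per cell cannot be told apart in any of these values.

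**Figure D2:**
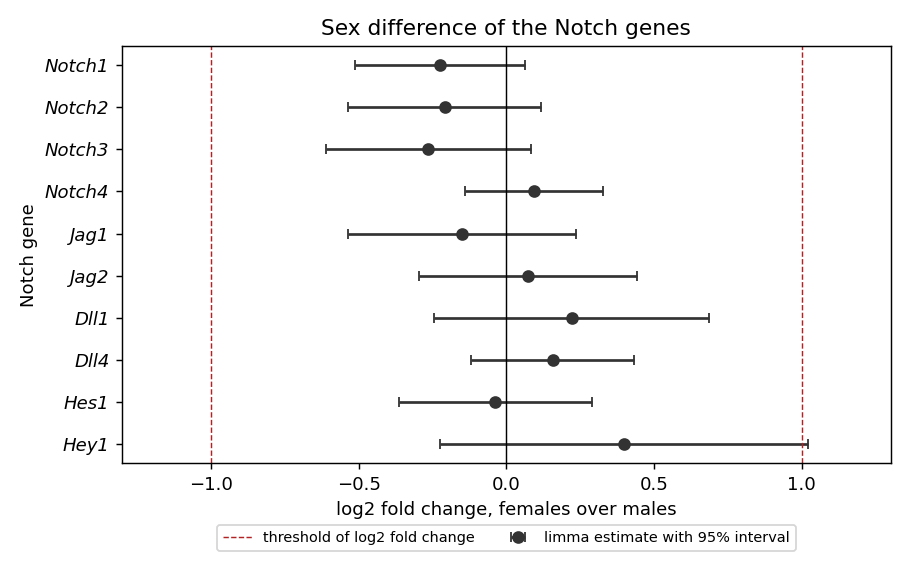
Log2 fold change of females over males for each Notch gene, as the limma estimate with its 95% interval (n = 5 rats per sex). Every interval includes 0, and that of *Hey1*, from −0.23 to 1.02, is the widest and alone crosses the dashed lines at the threshold of 1.

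The receptors *Notch1*, *Notch2* and *Notch3* had lower means in females, and *Notch4* a higher one, all within the spread between rats. *Notch1* (chromosome 3, 3905453 to 3951025, minus strand, build Rnor_6.0 here and for the genes below) was at 5.98, 4.39, 4.62, 4.65 and 4.07 FPKM in males 1 to 5 and at 4.15, 4.62, 3.97, 3.22 and 4.23 FPKM in females 1 to 5. Male 1 was the highest rat and female 4 the lowest, and the other 8 rats lay between 3.97 and 4.65 FPKM. The log2 fold change was −0.22 (95% interval −0.51 to 0.06, limma adjusted p = 0.451). The exact permutation p of *Notch1* was 0.0952, and it fell to 0.0317 without male 5 and to 0.0476 without female 2, and rose to 0.190 without male 1 and to the same value without female 4, so the exact result depended on single libraries. Over the fits that left out 1 library each, the log2 fold change of *Notch1* ran from −0.28 (without male 5) to −0.14 (without male 1).

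*Notch2* (chromosome 2, 200187184 to 200317621, plus strand) was at 3.83, 2.76, 3.84, 3.83 and 3.08 FPKM in males and at 3.44, 3.60, 2.72, 2.40 and 2.83 FPKM in females. Males 1, 3 and 4 shared nearly the same level, above all 5 females, while males 2 and 5 fell within the female range (log2 fold change −0.21, limma adjusted p = 0.550). *Notch3* (chromosome 7, 14138495 to 14189688, minus strand), the receptor of vascular smooth muscle and pericytes, was at 5.34, 3.33, 4.02, 4.36 and 3.003 FPKM in males and at 3.44, 3.61, 3.37, 2.70 and 3.25 FPKM in females. It spread more among males (SD 0.917 FPKM) than among females (SD 0.348 FPKM), a difference in spread that was not tested. Its log2 fold change was −0.26 (SE 0.16, limma adjusted p = 0.462), and it shrank to −0.16 without male 1. That of *Notch2* shrank to −0.13 without female 4.

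*Notch4* (chromosome 20, 4329811 to 4353785, plus strand), the endothelial receptor, was at 3.79, 3.07, 3.63, 3.51 and 3.59 FPKM in males and at 3.78, 3.61, 3.77, 3.30 and 4.38 FPKM in females. It had the smallest coefficient of variation of the members over the 10 rats, 9.47%, where the median of tested genes with at least 1 FPKM was 16.3%. Its log2 fold change, 0.09, was 0.05 without male 2 and 0.04 without female 5. Its value is uncertain, because the whole span of the gene, 23975 bases, lies within the row of *C4a*, a complement gene on the opposite strand with a male mean of 41.5 ± 12.2 FPKM and a female mean of 27.1 ± 22.1 FPKM (SD, n = 5). Whether the reads were counted by strand is not given in the sources used here, and whether any exon is shared by the rows was not tested, so reads counted without strand could be split between them. *Notch3* and *Jag2* also overlap short rows on their own or the other strand, which were at 0 and 0.388 FPKM.

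Of the summed level of the 4 receptors, *Notch1* made up 30.1% ± 1.76 in males and 28.6% ± 0.852 in females (SD, n = 5). *Notch3* made up 25.2% ± 2.39 and 23.3% ± 0.808, *Notch2* 22.1% ± 1.70 and 21.2% ± 1.93, and *Notch4* 22.5% ± 2.26 and 26.9% ± 2.51. *Notch1* held the largest mean share in each sex.

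Among the ligands, *Jag1* led in both sexes. *Jag1* (chromosome 3, 130079361 to 130114770, minus strand) was at 4.25, 4.45, 4.79, 5.17 and 5.11 FPKM in males and at 5.62, 5.26, 3.90, 2.76 and 4.43 FPKM in females. The females held both the 2 highest rats and the 2 lowest, so the male range fell wholly inside the female range (log2 fold change −0.15, 95% interval −0.53 to 0.24, limma adjusted p = 0.746). *Jag2* (chromosome 6, 137711155 to 137733026, minus strand) was at 3.88, 2.44, 3.89, 2.67 and 2.53 FPKM in males and at 3.37, 2.87, 3.60, 2.65 and 3.52 FPKM in females. Males 1 and 3 were the highest rats, and males 2 and 5 were under every female (log2 fold change 0.07, limma adjusted p = 0.882).

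*Dll1* (chromosome 1, 57318708 to 57327379, minus strand) was at 2.04, 1.13, 2.04, 1.23 and 1.49 FPKM in males and at 1.78, 1.58, 2.61, 1.75 and 1.504 FPKM in females. Female 3 was the highest and male 2 the lowest, and the log2 fold change was 0.22 (95% interval −0.24 to 0.69, limma adjusted p = 0.677). Without female 3 it was 0.10. *Dll4* (chromosome 3, 111135021 to 111145986, plus strand), the Delta-like ligand of endothelial cells, was at 2.91, 2.55, 2.94, 2.53 and 3.53 FPKM in males and at 3.63, 3.38, 2.99, 3.36 and 2.77 FPKM in females. Female 1 and male 5 were close together at the top, and the other 4 females lay within the male range (log2 fold change 0.16, limma adjusted p = 0.610). The summed level of the 4 ligands was 12.3 ± 1.23 FPKM for males and 12.7 ± 1.43 FPKM for females, of which *Jag1* made up 38.9% ± 4.998 and 34.3% ± 6.05 (SD, n = 5).

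The targets did not separate the sexes either. *Hes1* (chromosome 11, 74312806 to 74315248, minus strand), a transcriptional repressor, was at 25.8, 29.8, 22.7, 28.7 and 26.6 FPKM in males and at 28.1, 37.0, 24.5, 21.5 and 21.4 FPKM in females. The means were nearly equal, 26.7 ± 2.77 and 26.5 ± 6.50 FPKM (SD, n = 5, exact permutation p = 0.984), with the highest rat and the 2 lowest rats all female. The limma interval of the log2 fold change ran from −0.36 to 0.29. The near equality rested on female 2: without it the difference, females minus males, went from −0.213 to −2.85 FPKM (exact permutation p = 0.222) and the log2 fold change from −0.04 to −0.16 (limma adjusted p = 0.437). *Hey1* (chromosome 2, 95320283 to 95322696, plus strand), a related repressor best known in vessels, was at 1.03, 0.803, 0.739, 0.879 and 0.569 FPKM in males and at 0.889, 1.81, 1.64, 0.783 and 0.669 FPKM in females. Females 2 and 3 were above every other rat, and the remaining 3 females lay within the male range (log2 fold change 0.40, limma adjusted p = 0.549). The log2 fold change of *Hey1* fell to 0.22 without female 2 and to 0.26 without female 3, and reached 0.55 without female 5.

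Female 2 had the highest levels of both *Hes1* and *Hey1*, and it is also the library with urothelial markers and the largest mitochondrial share. Its summed level of 6 mural cell markers (smooth muscle and pericyte) was the highest of the 10 rats too, at 266 FPKM against 75.2 to 216 FPKM. So were its sums of endothelial (254 FPKM), intercalated cell (337 FPKM), podocyte (155 FPKM) and T cell markers (31.1 FPKM), while its proximal tubule sum was the lowest. *Tagln* was the largest part of the mural sum, at 148 FPKM in female 2 and 34.0 FPKM in female 4, so that sum does not weigh its markers equally. Over the 10 rats *Hes1* and the summed mural level had a Pearson r of 0.82 (permutation p = 0.00482) and a Spearman rho of 0.89 (permutation p = 0.00106), and r was 0.83 without the 2 rats farthest from the median. This was 1 of 40 relations between members and marker sums, computed after the data had been seen, and 0 of the 40 had an adjusted permutation p of at most 0.05 by r (0.172 for *Hes1* and mural cells, and 0.0424 by rho). *Hey1* had r of 0.71 with the endothelial sum (permutation p = 0.0214, adjusted p = 0.214) and 0.65 with the intercalated cell sum (permutation p = 0.0453, adjusted p = 0.234), and 0.47 and 0.59 without the 2 farthest rats. *Notch4* and *Dll4*, the endothelial receptor and ligand, had r of 0.31 and 0.07 with the endothelial sum (permutation adjusted p of 0.695 and 0.882). The part of these markers in the levels of *Hes1* and *Hey1* was not tested.

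Female 4 was the lowest rat for *Notch1*, *Notch2*, *Notch3* and *Jag1*. It also had the lowest summed levels of mural cell (75.2 FPKM), fibroblast (76.8 FPKM), macrophage (53.6 FPKM), T cell (6.14 FPKM) and injured tubule markers (902 FPKM). Its sums of proximal tubule (2805 FPKM) and inner medulla markers (13.5 FPKM) were the highest of the 10 rats. Over the 10 rats the summed mural level had r of 0.67 with *Notch1* (permutation p = 0.0468, adjusted p = 0.234), 0.64 with *Notch2* (permutation p = 0.0382, adjusted p = 0.234), 0.50 with *Notch3* (permutation p = 0.139, adjusted p = 0.520) and 0.77 with *Jag1* (permutation p = 0.0202, adjusted p = 0.214), from the same 40 relations. Without the 2 rats farthest from the median these fell to 0.25, 0.13, 0.01 and 0.24, so they rested on those rats. *Jag1* also had r of −0.73 with the summed level of principal cell markers (permutation p = 0.0086, adjusted p = 0.172), which was −0.74 without the 2 farthest rats (exact permutation p = 0.0195). *Dll1* had r of 0.67 with that sum (permutation p = 0.0331, adjusted p = 0.234), and 0.53 without the 2 farthest rats. The part of the other marker sums in the levels of female 4 was not tested. Of the sums of cell type markers, 2 differed between the sexes without overlap. Intercalated cell markers summed to 134 to 205 FPKM in the 5 males and 215 to 337 FPKM in the 5 females, with all 5 markers higher on average in females, and fibroblast markers summed to 234 to 320 FPKM in the males and 76.8 to 230 FPKM in the females, with 4 of 5 lower on average (exact permutation p = 0.00794 for each sum). Principal cell markers overlapped (290 to 471 FPKM for males, 335 to 531 FPKM for females, exact permutation p = 0.119), although all 5 of these markers were also higher on average in females. Of them *Avpr2*, the vasopressin receptor, had ranges apart (exact permutation p = 0.00794, limma adjusted p = 0.0469, log2 fold change 0.44), and *Aqp2* overlapped (exact permutation p = 0.0238, limma adjusted p = 0.122). Leaving out each library, the limma adjusted p of *Avpr2* passed 0.05 in 2 of 10 fits and reached 0.125. *Atp6v0d2* of the intercalated list (log2 fold change 0.57, limma adjusted p = 0.0351) and *Col3a1* of the fibroblast list (−1.14, limma adjusted p = 0.0477) each passed in 3 such fits.

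The levels of *Notch1* and *Notch3* were correlated from rat to rat by Pearson r, and whether their pairs with *Notch2* passed depended on single libraries. Of the 45 pairs of members, 3 had a Pearson r of log2(FPKM + 0.1) over the 10 rats with a Benjamini-Hochberg adjusted permutation p of at most 0.05, and these were the 3 pairs that the receptors *Notch1*, *Notch2* and *Notch3* form. *Notch1* and *Notch3* had r = 0.93 (permutation p = 0.00015, adjusted p = 0.00675) and rho = 0.87 (permutation p = 0.00214, adjusted p = 0.0637). *Notch2* and *Notch3* had r = 0.82 (permutation p = 0.00205, adjusted p = 0.0330) and rho = 0.83 (permutation p = 0.00425, adjusted p = 0.0637). *Notch1* and *Notch2* had r = 0.79 (permutation p = 0.0022, adjusted p = 0.0330) and rho = 0.84 (permutation p = 0.00369, adjusted p = 0.0637). Without the 2 rats farthest from the median, r was 0.78 (exact permutation p = 0.0178), 0.76 (exact permutation p = 0.0221) and 0.73 (exact permutation p = 0.0529), in the same order.

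**Figure D3:**
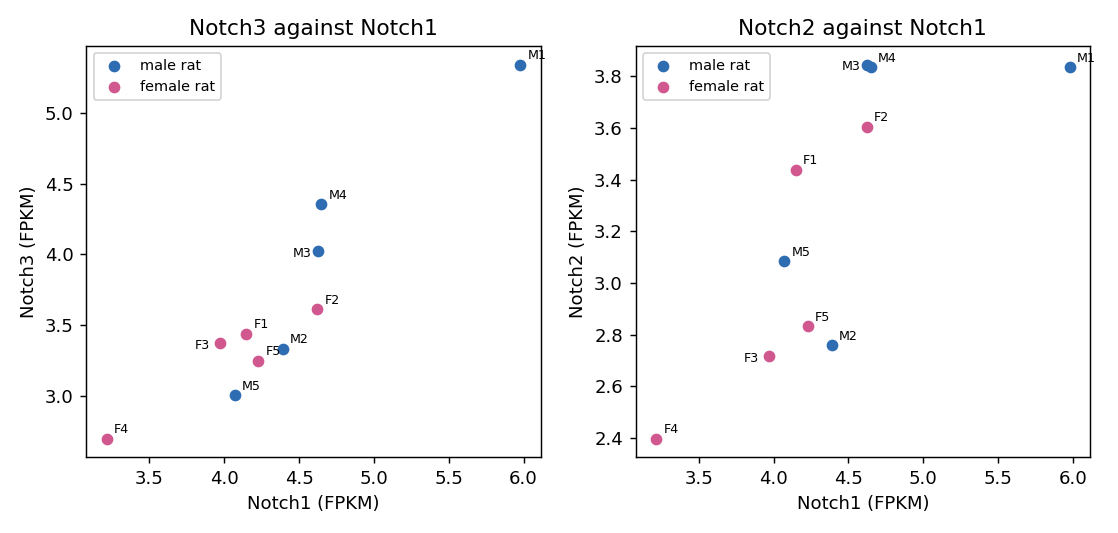
*Notch3* (left) and *Notch2* (right) against *Notch1* in each rat, all in FPKM, with males in blue (M1 to M5) and females in pink (F1 to F5). Male 1 is at the upper right and female 4 at the lower left of both panels, and r on the log2 scale is 0.93 on the left and 0.79 on the right.

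The pair of *Notch1* and *Notch3* stayed past the threshold by r without each of the 10 rats in turn, with r of 0.85 to 0.94. *Notch1* with *Notch2* and *Notch2* with *Notch3* did so in 3 of 10 each, with r of 0.66 to 0.83 and 0.75 to 0.86 over these fits. With the mean of each sex taken out, r was 0.90 for *Notch1* and *Notch3* (permutation adjusted p = 0.0184). The other 2 receptor pairs no longer passed (permutation adjusted p = 0.182), with r of 0.72 for *Notch1* and *Notch2* and 0.77 for *Notch2* and *Notch3*. By Spearman's rho none of the 3 passed, at the adjusted p of 0.0637 given above. With 5 rats per sex no correlation was computed within a sex. As a description, 4 of 13362 other genes with at least 1 FPKM (0.0299%) had an r with *Notch1* as high as that of *Notch3*, against 1.07% for *Notch2*.

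*Notch4* had r of 0.18 to 0.22 with the other receptors. These values depended on the scaling and on sex: they were 0.40 to 0.48 when libraries were scaled on genes outside the mitochondrial genome, and 0.44 to 0.54 with the mean of each sex taken out, and whether they differ from those among the other receptors was not tested. Its highest r among the members was with the ligand *Jag2*, 0.69 (permutation adjusted p = 0.126), and *Jag2* also had r = 0.75 with *Dll1* (permutation adjusted p = 0.109). *Jag1* had its highest r with *Notch2*, 0.71 (permutation adjusted p = 0.109). The targets had no pair past the threshold: r was 0.34 for *Hes1* with *Notch1*, 0.59 for *Hes1* with *Jag1* (permutation adjusted p = 0.482) and 0.52 for *Hes1* with *Hey1* (permutation adjusted p = 0.660), and the last was −0.06 without the 2 rats farthest from the median. *Dll4* had r of −0.42 with *Notch3* and −0.37 with *Notch1*, both with an adjusted permutation p of 0.660, and these went to −0.09 and 0.02 with the scaling outside the mitochondrial genome.

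**Figure D4:**
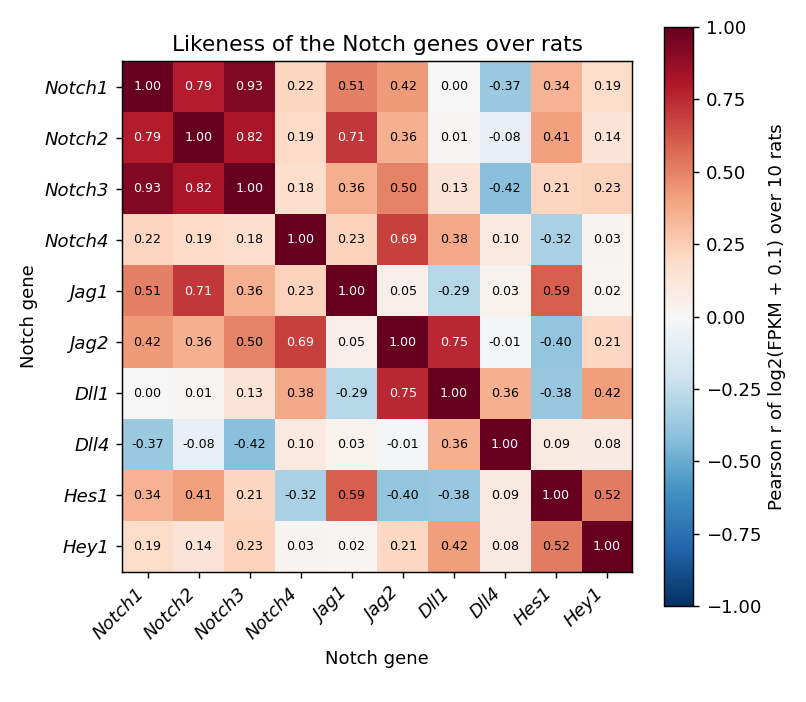
Pearson r of log2(FPKM + 0.1) over 10 rats for every pair of Notch genes, from −1 (blue) to 1 (red). The dark block of *Notch1*, *Notch2* and *Notch3* has r of 0.79 to 0.93, and *Dll4* with *Notch3*, at −0.42, is the lowest of the 45 pairs.

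The genes whose levels over the 10 rats were most like each member are given by r alone, as a description. The libraries differed in depth and in marker sums, and the part of these in r was not tested. *Socs5* and *Pias3*, both regulators of cytokine signalling through STAT proteins, were among the 3 genes most like *Notch1* (r of 0.95 and 0.95) and among the 3 most like *Notch3* (r of 0.93 and 0.93). *Notch2* was most like *Jak1* (0.95), *Notch4* most like *Tbc1d24* (0.85), *Jag1* most like *Lamb3* (0.98) and *Jag2* most like *Nynrin* (0.91). *Dll1* was most like *Gsn* (0.95), *Dll4* most like *Med7* (0.90), *Hes1* most like *Rnf43* (0.94) and *Hey1* most like *Prdm16* (0.89).

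The rest of the pathway was read from lists of 53 further symbols, of which 48 had a row (49 rows, since *Rbpj* is listed under 2 identifiers) and 44 rows were tested. *Aph1b*, *Maml3*, *Hdac1* and *Nrarp* were not analysed here, and *Neurl1a* is another symbol of *Neurl1*, which was tested. *Dll3*, *Dlk1*, *Dlk2* and *Dner*, the 4 other ligands, and *Hes3* were under the filter. Of the 44 rows, 1 was lower in females past both limma thresholds and 0 were higher, against 0.698% and 0.618% of all tested genes. A negative log2 fold change was found for 35 of 44 (79.5%), against 51.2% of all tested genes, with a median of −0.11 against −0.01. Under the other scalings and limma-voom the share was 75.0% to 88.6%, against 48.2% to 64.1% of all tested genes, and leaving out each library gave 69.0% (without female 2) to 86.4% (without male 5). An exact permutation p of at most 0.05 was found for 5 of 44 (14.8% of tested genes), and ranges were apart for 3 of 44 (5.10% of tested genes). The last 2 shares, 5 and 3 of 44, are near the background, and 43 of 44 rows did not pass limma.

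*Sox9*, a transcription factor that Notch can induce and that marks repairing tubule cells, was the gene that fell. It was at 10.8, 12.2, 11.5, 28.0 and 15.3 FPKM in males and at 8.80, 6.06, 6.95, 4.03 and 5.05 FPKM in females. Every male was above every female, with male 4 far above the rest and female 4 the lowest (log2 fold change −1.27, SE 0.27, limma adjusted p = 0.0359). The adjusted p of *Sox9* passed 0.05 upward without male 2, male 3, male 5, female 2, female 3, female 4 or female 5, in turn, reaching 0.0966 without female 5, while the log2 fold change stayed between −1.41 and −1.03. With the replicate number as a block it was 0.161. The summed level of injured tubule markers, which was 3279.5 to 7180 FPKM for males and 902 to 5572 FPKM for females (exact permutation p = 0.143), was likewise lowest in female 4. Nearly all of that sum is *Spp1* (888 FPKM in female 4 and 7007 FPKM in male 5). *Havcr1*, which encodes a kidney injury molecule, was highest in male 4 (105 FPKM) and lowest in female 4 (3.38 FPKM), as *Sox9* was, with overlapping ranges (exact permutation p = 0.127). *Spp1*, *Lcn2* (93.3 FPKM) and *Vcam1* (12.0 FPKM) were instead highest in male 5, and were likewise lowest in female 4. *Krt20*, the other marker of this list, had at most 5 reads in any rat. The part of these markers in the *Sox9* difference was not tested.

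Of the 12 genes for endocytosis and turnover, 0 passed limma and 3 reached 0.05 in the exact permutation test, where the background is 14.8%. *Dtx4*, a Deltex ubiquitin ligase, averaged 6.65 ± 0.885 FPKM among males and 4.42 ± 1.05 FPKM among females (SD, n = 5, exact permutation p = 0.00794), with ranges apart but a limma adjusted p of 0.108. *Dtx3* was at 20.8 ± 0.651 and 18.2 ± 1.85 FPKM (exact permutation p = 0.00794, limma adjusted p = 0.285), again with every male above every female. *Numbl*, a relative of the Notch antagonist Numb, was at 2.04 ± 0.430 and 1.10 ± 0.425 FPKM (exact permutation p = 0.0159, limma adjusted p = 0.132), with overlapping ranges. *Itch*, the most abundant of this list, was at 22.5 ± 2.47 and 23.3 ± 2.57 FPKM.

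Among the 8 genes of proteolysis, *Psenen*, the smallest subunit of γ-secretase, averaged 121 ± 14.1 FPKM among males and 149 ± 10.9 FPKM among females (SD, n = 5, exact permutation p = 0.0159, limma adjusted p = 0.139), and the ranges overlapped through male 5 and female 1. None of the 5 genes of receptor glycosylation passed, and *Rfng*, the most abundant, was at 17.9 ± 2.11 and 17.2 ± 1.99 FPKM. Of the 10 rows of the nuclear complex none passed, and *Ctbp1*, a corepressor, was at 85.1 ± 4.07 and 85.1 ± 10.5 FPKM. Among the other targets *Hes6* was the most abundant, with 64.5 ± 10.7 FPKM for males and 57.3 ± 12.5 FPKM for females (limma adjusted p = 0.654).

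**Figure D5:**
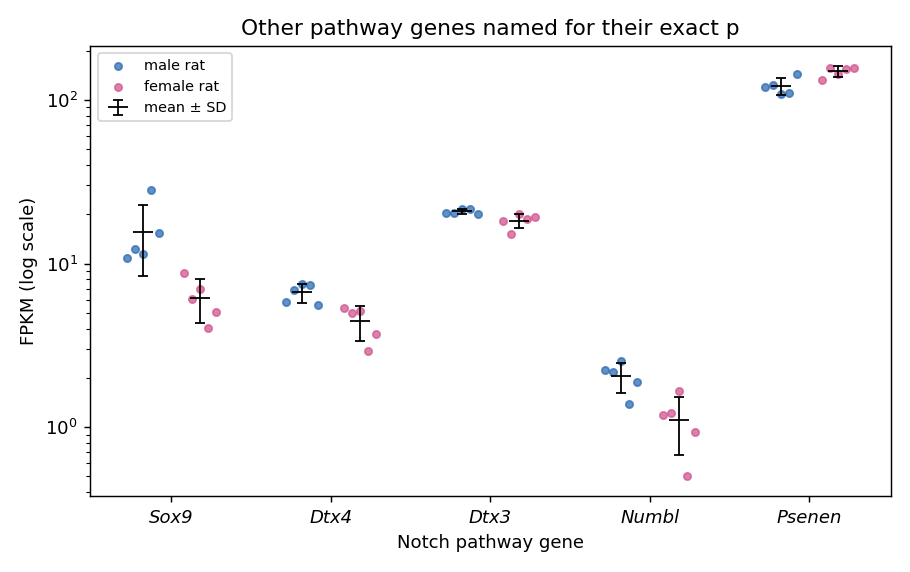
Expression in FPKM, on a log axis, of the 5 other pathway genes with an exact permutation p of at most 0.05, in males (blue) and females (pink), with mean ± SD. The sexes do not overlap for *Sox9*, *Dtx4* and *Dtx3*, and overlap for *Numbl* and *Psenen*.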

How the data were processed

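The 10 libraries were grouped by the sex in their labels, with 5 PCK rats of each. The authors deposited 1 table of FPKM per gene on build Rnor_6.0. The submitters' processing notes name fastp, HISAT2 2.0.5, StringTie 1.3.3b and featureCounts 1.5.0-p3, and the strand setting is not given in the sources used here. The deposited FPKM share a median-ratio scale, with a factor of 1.01 in all 10 libraries. Dividing FPKM by the worth of 1 read, given the length of the gene, returned whole reads for 100% of values, from which the depth was taken. Libraries differed from each other by far more than sampling noise (lowest chi-square over degrees of freedom 9.78), and none was merged. P-values measure the spread between these rats. They treat the rats as independent, although the methods describe littermates. Since the litter of each rat is not given, litter cannot be told apart from other spread between rats.

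Since FPKM are not counts, log2(FPKM + 0.1) of 17631 genes, those averaging 0.1 FPKM or more, was fitted with limma 3.58.1 (lmFit and eBayes with trend, R 4.3.3), with Benjamini-Hochberg adjustment over all of them. Fold changes on this scale understate the change of low genes. Genes were called at an adjusted p of 0.05 or less with an absolute log2 fold change of 1 or more. Single genes had an exact permutation test, two-sided, and correlations a permutation test with 100000 draws (Python 3.11.15, scipy 1.17.1), two-sided. The Notch genes and all lists were chosen with earlier results of these data known. Named are the 10 members, every other pathway gene with an adjusted or exact p of at most 0.05 or with ranges apart, the most abundant tested gene of each list, and the genes most like each member by r among genes of at least 1 FPKM, members and assembly names excluded. Of the 3 such genes per member, the text gives the first or those shared. Marker genes are named where their values stand beside a result, and not every marker with ranges apart is named.

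Marker lists covered proximal tubule, thick limb, distal convoluted tubule, principal and intercalated cells, podocytes, endothelium, mural cells, fibroblasts, macrophages, T cells, urothelium, injured tubule and inner medulla. Apart from intercalated cells and fibroblasts, the sums overlapped between the sexes (exact permutation p of 0.0556 to 0.643, and 0.0159 for inner medulla). Alternatives were other pseudocounts, filters and scalings, eBayes without trend or robust, limma-voom on recovered reads, a replicate block, r of deviations from the mean of each sex or rho, and leaving out each library. Scaling by total reads was added after seeing the data. Both tests were checked on simulated data.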

Additional observations from a re-analysis of the deposited data

Results flagged for a closer look

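*Dll1* in female 3, at 2.61 FPKM, lay apart from the other 4 females, of which the nearest was at 1.78 FPKM, a gap of 0.748 of the group's whole range. It was the only such value among the 20 groups of 5 rats looked at for the 10 members, and chance gives about 1 in 20. Without female 3 the *Dll1* log2 fold change of females over males went from 0.22 to 0.10 and the difference in mean FPKM from 0.262 to 0.0706 (exact permutation p = 0.714), the lowest of the fits that left out each library. Leaving out the other libraries gave log2 fold changes of 0.12 to 0.32.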

How the results depend on the processing

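No member was called by limma under any alternative run: other pseudocounts (1 or 0.01), the filter dropped or set to 1 FPKM (for 9 members, since *Hey1* is then not tested), scaling outside the mitochondrial genome or by total reads, quantile normalization, both eBayes variants, limma-voom on recovered reads, the replicate block or leaving out each library. Median-ratio scaling multiplies all libraries by the same factor, so it could not change a call. Leaving out each library in turn gave log2 fold changes of −0.25 to 0.0043 for *Jag1*, −0.0007 to 0.16 for *Jag2* and −0.16 to 0.0329 for *Hes1*, and differences in mean FPKM (females minus males) of −0.668 to 0.0489, −0.0419 to 0.322 and −2.85 to 1.07, so the direction of these 3 is not settled. Members with an exact permutation p of at most 0.05 numbered 0 to 1 in the same fits, the 1 being *Notch1* without male 5 or without female 2. Other pathway genes past both limma thresholds numbered 0 with no filter, 0 with eBayes without trend, 0 with the replicate block, and 0 to 1 when each library was left out, the gene at stake being *Sox9* each time. With scaling outside the mitochondrial genome, the receptor pairs stayed past the threshold. There r was 0.85 for *Notch1* and *Notch2*, 0.94 for *Notch1* and *Notch3* and 0.86 for *Notch2* and *Notch3* (permutation adjusted p of 0.0027, 0.0128 and 0.0159). Pairs of members past the threshold numbered 1 with deviations from the mean of each sex, 0 by Spearman's rho, and 1 to 4 when each library was left out. There were 4 without male 1, where *Notch2* with *Jag1* joined, and 1 without male 3, male 4, female 2, female 3, female 4 or female 5. The cause was not tested. Over all genes, 109 were higher and 123 lower in females, 65 and 72 with a pseudocount of 1, 105 and 177 by limma-voom, 97 and 135 with scaling by total reads, and 121 and 105 with quantile normalization. Scaling by total reads, chosen after seeing the data, moved the median log2 fold change of all genes to −0.08.

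The replicate numbers did not pair the rats: same-numbered rats had correlations of −0.10 to 0.07, and 0 of 5 were over 0.1. With the replicate block, 0 members were called, and 89 genes were higher and 87 lower in females. Depth limits *Hey1*, with 8 to 26 reads per rat, most.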
